A study of Homo sapiens with 9 samples.

Results

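The 10 genes described here code for parts of the insulin and IGF-1 signalling pathway and of its transcription factor branch. With earlier results of these data known, they were chosen by name from the 58347 Ensembl gene IDs of a read count table. They are the receptors INSR and IGF1R, the adaptors IRS1 and IRS2, the inhibitors GRB10 and PIK3IP1, the transcription factors FOXO1, FOXO3 and FOXO4, and the FOXO target CCNG2. All 10 passed the filter on low counts, which left 23675 genes for testing. The RNA came from K562 cells, a human erythroleukaemia line, that in every library stably carried the parts of a recruitment system, each driven by the EF1a promoter. These parts were dCas9, a nuclease-dead Cas9 that stays bound where its guide leads it, MS2-Fkbp, and SS18-Frb, in which SS18 is a subunit of the BAF chromatin remodeller. Rapamycin joins Fkbp to Frb. The sgRNA was either directed to the HBG1 promoter or non-targeting, and treatment was 10 nM rapamycin or DMSO, lasting 24 h. The groups were the HBG1 sgRNA with DMSO (n = 3), the HBG1 sgRNA with rapamycin (n = 3), the non-targeting sgRNA with DMSO (n = 1) and the non-targeting sgRNA with rapamycin (n = 2). The labels do not say whether replicates were separate cultures, so p-values measure only the spread between these libraries, which may be technical. The study asked whether recruited endogenous BAF raises HBG1 expression, and here the same libraries were read for how the insulin pathway genes differed between rapamycin and DMSO.

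Insulin and IGF-1 bind receptor tyrosine kinases that phosphorylate IRS adaptors, which recruit PI3K and so lead to activation of the kinase AKT. AKT phosphorylates FOXO factors and keeps them out of the nucleus, and mTORC1, the kinase complex that rapamycin inhibits, feeds back on the pathway by restraining IRS proteins and by stabilising the receptor inhibitor GRB10. INSR, IRS2 and CCNG2 are textbook FOXO targets, with the forkhead core GTAAACA as the DNA element that FOXO proteins bind. RNA counts measure neither phosphorylation nor the place of a protein in the cell.

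The libraries held 19797409 to 31619671 counts each. All 8 erythroid and leukaemia markers checked were present in every library, at 61.7 to 14592 CPM (read counts scaled to a common library size), whereas CD3E, CD2, MS4A1, CD79A, CSF1R, CDH1, DCN, CDH5 and VWF, markers of other cell types, reached at most 0.515 CPM. Others of that kind, CD3D, CD14, LYZ, EPCAM, KRT8, KRT18, COL1A1, COL1A2 and PECAM1, had highest levels from 1.22 CPM (CD14) to 524 CPM (KRT8), and their part in the results was not tested. HBG1 averaged 296 CPM with the HBG1 sgRNA in DMSO and 1930 CPM in rapamycin, but 8233 and 8897 CPM with the non-targeting sgRNA, so the cells of the guides differed in HBG1 already without rapamycin. By chi-square per gene, replicate 1 of both HBG1 sgRNA groups stood apart. Its value against replicates 2 and 3 was 16.5 to 18.6, compared with 4.74 and 7.91 between replicates 2 and 3. Pearson's r of log2 CPM showed this less. In rapamycin it was 0.969 and 0.972 with replicate 1, beside 0.979 between replicates 2 and 3. In DMSO it was 0.980 and 0.976, beside 0.978, which did not set replicate 1 apart. Results are also given without replicate 1 of both HBG1 sgRNA groups, an alternative chosen after seeing the data.

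To show what sequence lies at the starts of the genes, RefSeq promoter windows on GRCh38.p14 were searched from 250 bases before to 50 bases after each start. All 10 genes were matched, with 18 windows in all. The forkhead core GTAAACA, read on both strands, was found in the windows of 2 of the 10 genes, PIK3IP1 and FOXO4, and in 4.19% of the 27305 genes with a window (3.42% of all 35116 windows). The longer form GTAAACAA, which contains the core, was found in 0 of the 10 genes and in 1.18% of all genes (0.954% of windows). The variant CAAAACA, searched after the promoters had been seen, was found in IRS2 and in 6.05% of all genes (4.92% of windows). The E-box form TCACGTG, also searched after the promoters had been seen, was found in IRS1 and CCNG2 and in 4.49% of all genes (3.71% of windows). The 5 matches are shown on the strand of the gene, with the match in capitals, because they are the only ones in these windows for the motifs searched.
PIK3IP1, forkhead core on the opposite strand: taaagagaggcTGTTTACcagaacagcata
FOXO4, forkhead core: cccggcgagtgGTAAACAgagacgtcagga
IRS2, CAAAACA on the opposite strand: gagtcacatgtTGTTTTGctcttcttagtt
IRS1, E-box form: cggaggctccgTCACGTGtttttctcc
CCNG2, E-box form: tccgcggggagTCACGTGccccgccccctt
Chromosome positions are those of the printed stretches, and base numbers give where each match begins relative to the RefSeq start. The PIK3IP1 stretch lies at chr22:31292454-31292483 on the minus strand, with its match starting at base 17 after the start. That match belongs to the second of the 2 listed PIK3IP1 starts. The FOXO4 stretch lies at chrX:71095863-71095892 on the plus strand, with its match starting at base 24. The IRS2 stretch lies at chr13:109786605-109786634 on the minus strand, with the first base of its match at -40. The IRS1 stretch lies at chr2:226799771-226799797 on the minus strand, with its match starting at base 35. The CCNG2 stretch lies at chr4:77157165-77157194 on the plus strand, with its match starting at -31. A match of letters is a description of the window and no evidence that a factor was bound.

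In bulk RNA such as this, fewer cells that express a gene and less RNA per cell cannot be told apart. The first question was how rapamycin and DMSO differed in cells with the HBG1 sgRNA. Of the 10 genes, 4 rose (CCNG2, FOXO4, IGF1R and FOXO3) and 1 fell (GRB10) at an adjusted p under 0.05 in edgeR's quasi-likelihood test, compared with 6.8% of all tested genes, 2.75% higher and 4.05% lower. An unadjusted p under 0.05 was reached by 8 of the 10, beside 20.8% of all tested genes. The median log2 fold change of the 10 genes was 0.50, beside 0.02 over all tested genes. In 7 of the 10 genes the 3 rapamycin libraries did not overlap the 3 DMSO libraries, 6 of them higher and 1 lower. Of all tested genes, 25.3% did not overlap (12.2% higher and 13.1% lower). Because the 10 genes were chosen with earlier results of these data known, these counts are descriptions and no test of the set. The genes at the low end of expression, IRS1 with 6 to 26 counts per library and FOXO1 with 12 to 34, had intervals too wide to show a change of the size seen in the others.

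**Figure D1:**
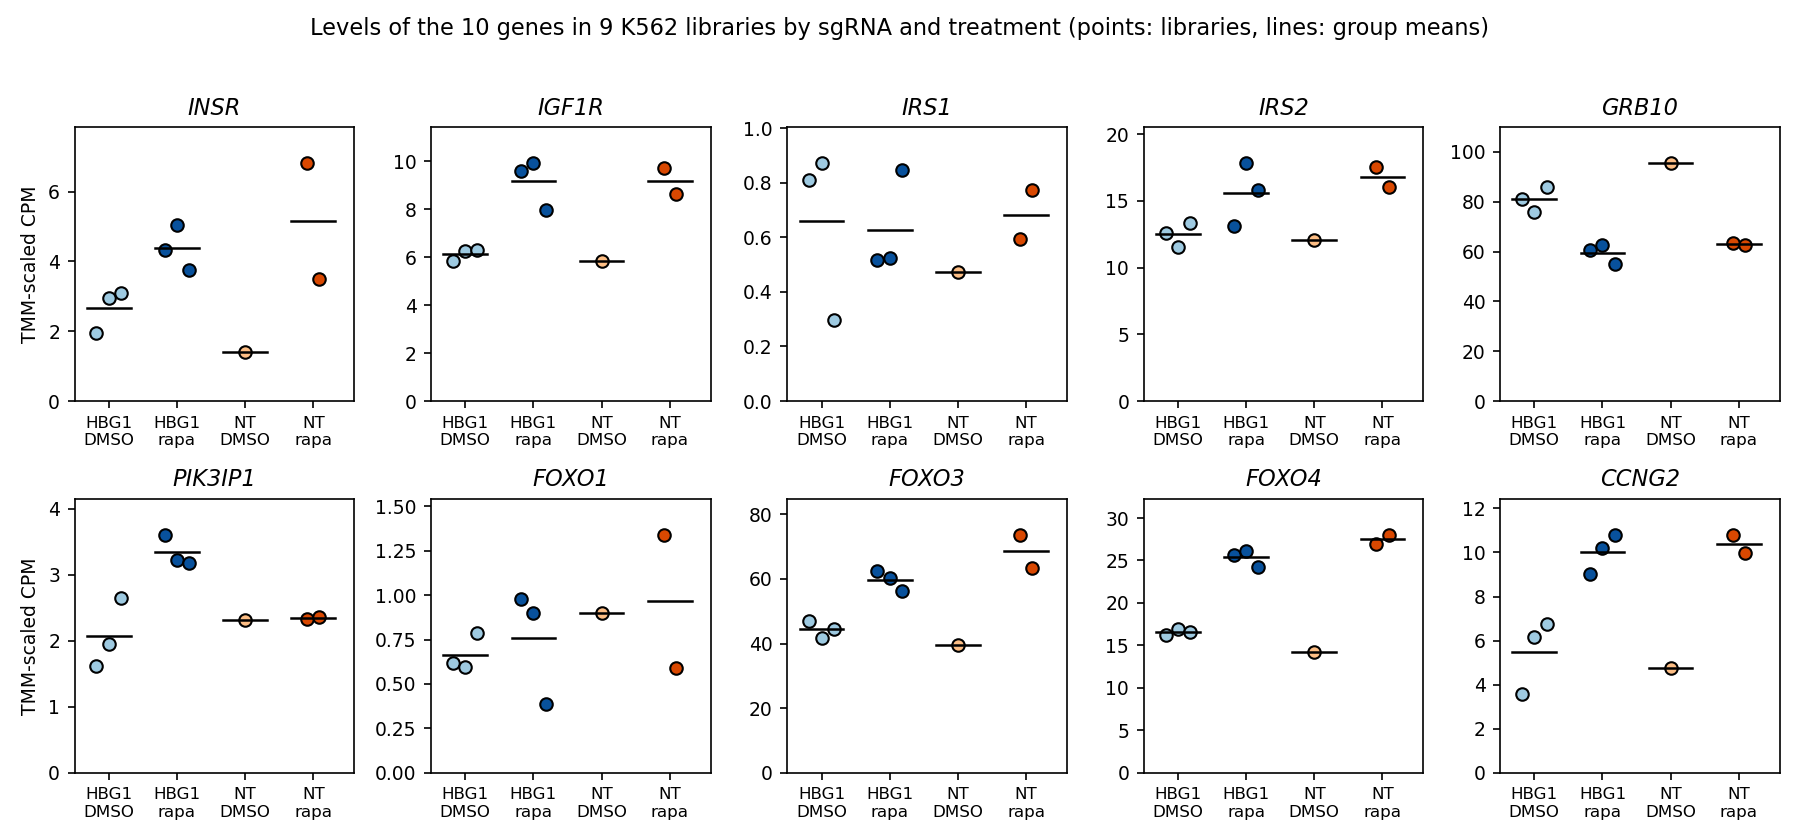
Levels of the 10 genes in each of the 9 libraries, as TMM-scaled CPM on axes that start at 0, by sgRNA (HBG1 or non-targeting, NT) and treatment (DMSO or rapamycin, rapa). Points are libraries and horizontal lines are group means; INSR, IGF1R, FOXO3, FOXO4 and CCNG2 were higher in all 5 rapamycin libraries than in all 4 DMSO libraries, and GRB10 was lower.

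Among the receptors, IGF1R, the receptor of IGF-1, lies at chr15:98648539-98964530 on the plus strand (GRCh38, GENCODE 29). With the HBG1 sgRNA it measured 5.83, 6.25 and 6.30 CPM in DMSO and 9.60, 9.93 and 7.96 CPM in rapamycin. Every rapamycin library was above every DMSO library, with rapamycin replicate 3 the lowest of its group. The rise of IGF1R was 0.58 on the log2 scale (SE 0.16, edgeR adjusted p = 0.0383), which is 1.49-fold. This call was lost in 8 of the 9 fits that each left out 1 library (adjusted p = 0.0517 to 0.120) and without replicate 1 of both groups (log2 fold change 0.51, adjusted p = 0.116). With the replicate number as a block IGF1R kept its call (0.58, edgeR adjusted p = 0.0173). The pairing in this block was taken from the titles, and the counts bear it out only for replicate 1.

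INSR, the insulin receptor, lies at chr19:7112255-7294034 on the minus strand. It measured 1.94, 2.97 and 3.10 CPM in DMSO and 4.34, 5.04 and 3.77 CPM in rapamycin. The groups did not overlap, and DMSO replicate 1 was the lowest library of the 6. The log2 fold change of 0.72 (SE 0.28, 95% interval 0.13 to 1.31) did not pass the threshold in the unpaired edgeR fit (adjusted p = 0.144). With the replicate block it passed (0.74, edgeR adjusted p = 0.0462), in a fit that called 17.1% of its genes, 7.43% higher and 9.62% lower. The change in single pairs was 2.23-fold, 1.70-fold and 1.22-fold for replicates 1, 2 and 3. Without replicate 1 the log2 fold change was 0.53 (edgeR adjusted p = 0.324).

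Among the adaptors, IRS2, which links the receptors to PI3K, lies at chr13:109752698-109786568 on the minus strand, and its promoter window holds the CAAAACA match shown above. It measured 12.6, 11.6 and 13.4 CPM in DMSO and 13.1, 17.9 and 15.8 CPM in rapamycin. The groups overlapped, because rapamycin replicate 1 lay below DMSO replicate 3. The gene shares 115 exonic bases with AL162497.1, which had 118 counts over all libraries. On the log2 scale the difference was 0.32 (SE 0.14, 95% interval 0.03 to 0.61, edgeR adjusted p = 0.185), and it stayed short of the threshold with the replicate block (adjusted p = 0.107). A fit of guide and treatment as additive terms over all 9 libraries, which averages the rapamycin change over both guides, called it (0.37, adjusted p = 0.0346).

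IRS1, an adaptor that S6 kinase, downstream of mTORC1, phosphorylates in the feedback, lies at chr2:226731317-226799759 on the minus strand. The E-box match in its RefSeq promoter window lies upstream of this GENCODE gene. IRS1 was the lowest of the 10 genes, at 0.810, 0.873 and 0.295 CPM in DMSO and 0.516, 0.523 and 0.844 CPM in rapamycin. The groups overlapped, with all rapamycin libraries inside the range of the DMSO libraries. Its log2 fold change of -0.08 had a 95% interval of -1.26 to 1.10 (edgeR adjusted p = 0.960), so a change of the size of the IGF1R change would not have been detectable at this depth. The sign turned without replicate 1 of both groups (0.21).

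Among the inhibitors, GRB10, an adaptor that binds the activated insulin and IGF-1 receptors and dampens them, lies at chr7:50590063-50793462 on the minus strand. It was the 1 gene of the 10 that fell. It measured 81.2, 75.8 and 86.0 CPM in DMSO and 60.4, 62.5 and 55.2 CPM in rapamycin. Every rapamycin library was below every DMSO library. GRB10 changed by -0.45 on the log2 scale (SE 0.08, edgeR adjusted p = 0.00368), which is 1.37-fold lower. GRB10 kept its call under all 17 alternatives run, with an adjusted p of at most 0.0325.

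PIK3IP1, a membrane protein that restrains the catalytic subunit of PI3K, lies at chr22:31281593-31292534 on the minus strand and carries 1 of the 2 forkhead core matches shown above. It measured 1.62, 1.95 and 2.66 CPM in DMSO and 3.61, 3.23 and 3.18 CPM in rapamycin. The groups did not overlap, but the values rest on 50 to 98 counts per library. The log2 fold change was 0.70 (SE 0.26, 95% interval 0.14 to 1.26) and did not pass the threshold (edgeR adjusted p = 0.134, or 0.0915 with the replicate block). The gene shares 36 exonic bases with its antisense neighbour PIK3IP1-AS1, which had 43 counts over all libraries, and whether counting used strand is not given in the sources used here.

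Among the transcription factors, FOXO4 lies at chrX:71096197-71103535 on the plus strand, and the forkhead core in its RefSeq promoter window lies before this GENCODE start. It measured 16.3, 16.9 and 16.6 CPM in DMSO and 25.7, 26.1 and 24.3 CPM in rapamycin. Both groups were tight and far apart. FOXO4 rose by 0.61 on the log2 scale (SE 0.10, edgeR adjusted p = 0.00199), which is 1.53-fold, and single pairs gave 1.58-fold, 1.54-fold and 1.46-fold. FOXO4 kept its call under all 17 alternatives run, with an adjusted p of at most 0.0136.

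FOXO3 lies at chr6:108559835-108684774 on the plus strand. It measured 47.0, 41.9 and 44.5 CPM in DMSO and 62.6, 60.3 and 56.4 CPM in rapamycin. The groups did not overlap. FOXO3 rose by 0.42 on the log2 scale (SE 0.09, edgeR adjusted p = 0.00901), which is 1.34-fold, and the call was lost in 1 fit, without DMSO replicate 2 (adjusted p = 0.0594). FOXO3B, a near-identical copy of FOXO3 at another locus, had 91 to 190 counts per library, with means of 6.33 CPM in DMSO and 5.92 CPM in rapamycin. How reads that map to both were treated is not given in the sources used here, so the level of FOXO3 is uncertain to that extent.

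FOXO1 lies at chr13:40469953-40666597 on the minus strand. It measured 0.616, 0.593 and 0.787 CPM in DMSO and 0.981, 0.903 and 0.390 CPM in rapamycin. Rapamycin replicate 3 was the lowest of the 6 libraries and the other rapamycin libraries were the highest. The log2 fold change of 0.17 had a 95% interval of -0.96 to 1.30 (edgeR adjusted p = 0.899), and it was -0.12 without replicate 1 of both groups. A change of the size of the FOXO4 change would not have been detectable in FOXO1 at this depth.

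CCNG2, an unconventional cyclin linked to cell cycle arrest and a known FOXO target, lies at chr4:77157151-77433388 on the plus strand, with the E-box match of its promoter window shown above. This match lies before the RefSeq start but after this GENCODE start. CCNG2 measured 3.56, 6.14 and 6.74 CPM in DMSO and 9.03, 10.2 and 10.8 CPM in rapamycin. The groups did not overlap, and DMSO replicate 1 was far below the others. CCNG2 had the highest fold change of the 10 genes in this comparison, with a log2 fold change of 0.88 (SE 0.20, edgeR adjusted p = 0.0165), which is 1.84-fold. Without replicate 1 of both groups it was 0.71 (adjusted p = 0.0142), and the call was lost without rapamycin replicate 3 (adjusted p = 0.0786).

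The libraries with the non-targeting sgRNA gave a second view of rapamycin, whose fold changes come from other libraries than those of the HBG1 sgRNA. The 2 views are not fully separate, because the HBG1 sgRNA p-values came from a fit of all 9 libraries. With 1 DMSO library there was no test, and the values are fold changes only. CCNG2 measured 4.77 CPM in DMSO and 10.8 and 9.96 CPM in rapamycin, which is 2.18-fold. FOXO4 measured 14.2 CPM in DMSO and 26.9 and 28.1 CPM in rapamycin, which is 1.93-fold, and FOXO3 measured 39.4 CPM compared with 73.8 and 63.4 CPM, which is 1.74-fold. For these 3 genes both rapamycin libraries were above the DMSO library of their guide and above all DMSO libraries of the other guide.

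IGF1R with the non-targeting sgRNA measured 5.84 CPM in DMSO and 9.71 and 8.64 CPM in rapamycin, which is 1.57-fold. INSR measured 1.42 CPM in DMSO and 6.83 and 3.50 CPM in rapamycin. Its difference of 1.87 on the log2 scale was the highest of the 10 genes with this guide, and the rapamycin libraries lay far apart: rapamycin replicate 2 alone was 2.47-fold above the DMSO library. GRB10 measured 95.6 CPM in DMSO and 63.5 and 62.6 CPM in rapamycin, which is 1.52-fold lower.

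IRS2 measured 12.1 CPM in DMSO and 17.6 and 16.1 CPM in rapamycin with the non-targeting sgRNA, which is 1.39-fold. PIK3IP1 measured 2.32 CPM in DMSO and 2.33 and 2.36 CPM in rapamycin, a log2 fold change of 0.02. These PIK3IP1 values came from 54, 59 and 52 counts and were nearly equal, unlike the groups with the HBG1 sgRNA. FOXO1 measured 0.902 CPM in DMSO and 1.34 and 0.591 CPM in rapamycin, and IRS1 measured 0.472 CPM in DMSO and 0.592 and 0.773 CPM in rapamycin. For both genes these values rest on the low counts given above.

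The sign of the rapamycin change was the same with both guides for 9 of the 10 genes, all but IRS1, beside 68% of all tested genes. The sign of FOXO1 rested on single libraries: with the non-targeting sgRNA its log2 fold change was 0.11, and -0.61 without rapamycin replicate 1. For PIK3IP1 the shared sign rested on a log2 fold change of only 0.02 with the non-targeting sgRNA. Over both guides, 5 of the 10 genes (INSR, IGF1R, FOXO3, FOXO4 and CCNG2) were higher in all 5 rapamycin libraries than in all 4 DMSO libraries, beside 6.38% of all tested genes. GRB10 was lower in all 5, beside 8.29% of all tested genes, which makes 14.7% in either direction. IRS1, IRS2, PIK3IP1 and FOXO1 overlapped. This count over both guides was chosen after seeing the data. The additive fit over both guides called 7 of the 10 genes, with INSR (1.02, edgeR adjusted p = 0.0130) and IRS2 beside the 5 called with the HBG1 sgRNA, and 13.8% of all tested genes.

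**Figure D2:**
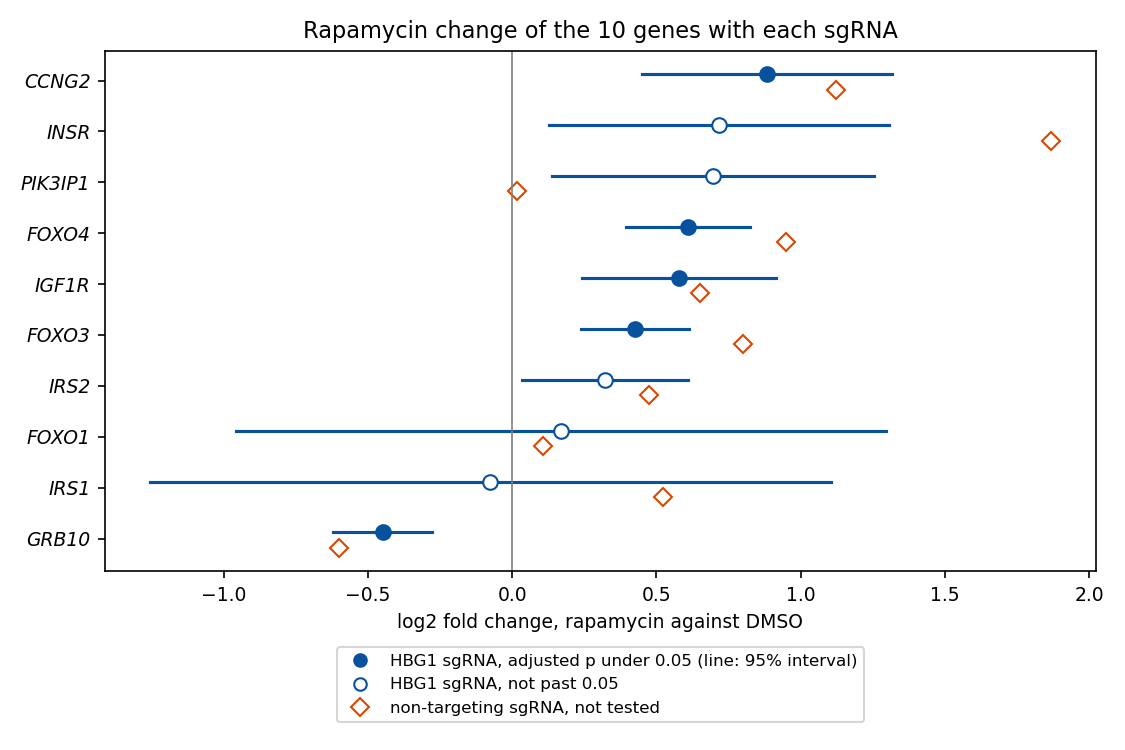
Log2 fold change of the 10 genes, rapamycin against DMSO, with the HBG1 sgRNA (circles, lines are 95% intervals, filled where the adjusted p is under 0.05) and with the non-targeting sgRNA (diamonds, 1 DMSO library and no test). Diamonds lie on the same side of 0 as the circles for all genes but IRS1, and PIK3IP1 sits at 0.70 with the HBG1 sgRNA and 0.02 with the non-targeting sgRNA.

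The next question was whether the guide mattered for these genes. Under rapamycin, 0 of the 10 genes differed between the HBG1 sgRNA (n = 3) and the non-targeting sgRNA (n = 2) in edgeR's test, 0 had an unadjusted p under 0.05, and DESeq2 called 0. Of all tested genes, 0.0296% were called and 6.27% had an unadjusted p under 0.05. The intervals were narrow for the abundant genes, with log2 differences of -0.09 (95% interval -0.28 to 0.10) for GRB10, -0.12 (-0.35 to 0.12) for FOXO4 and -0.20 (-0.41 to 0.01) for FOXO3. They were wide for IRS1 (-0.10, -1.43 to 1.23), FOXO1 (-0.38, -1.61 to 0.84) and PIK3IP1 (0.51, -0.12 to 1.14), which leaves room for differences of more than 1 log2 unit.

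The test of the interaction asks whether the rapamycin change itself differed between the guides. It called 0 of the 10 genes and 0.00422% of all tested genes in edgeR, with an adjusted p of 0.9999 for each of the 10 genes, and DESeq2 called 0 of the 10. At an unadjusted p under 0.05 edgeR gave 2 of the 10 genes, beside 2.86% of all tested genes, and DESeq2 gave 1. The 2 genes were FOXO3, with a difference of -0.37 (95% interval -0.72 to -0.03), and INSR, with -1.15 (95% interval -2.28 to -0.02), both with a smaller change with the HBG1 sgRNA. Without rapamycin replicate 1 of the non-targeting sgRNA the differences were -0.26 (SE 0.17) for FOXO3 and -0.58 (SE 0.54) for INSR. With the replicate block within each guide they were -0.26 (SE 0.15) and -0.57 (SE 0.50). In that block the same library has no DMSO partner and does not enter the difference. These 2 fits therefore rest on the same replicate 2 pair of the non-targeting sgRNA and are not separate checks. For PIK3IP1 the difference between guides was 0.68 with a 95% interval of -0.33 to 1.69. In this fit the lone DMSO library of the non-targeting sgRNA was assumed to vary like the other groups.

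Levels of different genes were compared per kilobase of annotated exon. The length was that of all annotated exons of a gene together, such as 7471 bases for CCNG2 and 3805 for PIK3IP1. Which transcripts the cells used was not tested, so the order of genes close in level is uncertain to that extent. Over the 9 libraries the means ran from GRB10 (7.29 CPM per kb), FOXO3 (7.04 CPM per kb) and FOXO4 (6.29 CPM per kb) through IRS2 (1.78 CPM per kb), CCNG2 (1.07 CPM per kb), PIK3IP1 (0.679 CPM per kb), IGF1R (0.558 CPM per kb) and INSR (0.350 CPM per kb) to FOXO1 (0.127 CPM per kb) and IRS1 (0.0636 CPM per kb). The order differed between groups. With the non-targeting sgRNA, FOXO1 (0.145 CPM per kb) was above INSR (0.136 CPM per kb) in DMSO, and IGF1R (0.658 CPM per kb) was above PIK3IP1 (0.617 CPM per kb) in rapamycin. At the top the order went with treatment. With the HBG1 sgRNA in DMSO, GRB10 led at 8.27 ± 0.524 CPM per kb (SD, n = 3), above FOXO3 at 5.76 ± 0.332 and FOXO4 at 4.82 ± 0.0961 CPM per kb. In rapamycin FOXO3 at 7.74 ± 0.402 and FOXO4 at 7.36 ± 0.283 CPM per kb were above GRB10 at 6.06 ± 0.385 CPM per kb. FOXO3 was above FOXO4 in each of these 3 libraries, at 8.10 and 7.46, 7.81 and 7.58, and 7.31 and 7.04 CPM per kb. With the non-targeting sgRNA the same order held, GRB10 first in DMSO at 9.76 CPM per kb and last of the 3 in rapamycin at 6.44 ± 0.0673 CPM per kb (SD, n = 2). In DMSO with the HBG1 sgRNA, CCNG2 averaged 0.734 ± 0.226 and PIK3IP1 0.546 ± 0.139 CPM per kb (SD, n = 3). CCNG2 was the higher in each of the 3 libraries, at 0.477 and 0.426, 0.822 and 0.514, and 0.902 and 0.698 CPM per kb.

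Within the FOXO family the summed level with the HBG1 sgRNA was 10.7 ± 0.240 CPM per kb in DMSO and 15.2 ± 0.707 CPM per kb in rapamycin (SD, n = 3). It was 9.37 CPM per kb in DMSO with the non-targeting sgRNA, where its 2 rapamycin libraries both lay above every DMSO library. FOXO3 made up 53.9% ± 1.91 of the family in DMSO and 50.8% ± 0.652 in rapamycin with the HBG1 sgRNA (SD, n = 3), FOXO4 made up 45.1% ± 1.91 and 48.4% ± 0.797, and FOXO1 0.999% ± 0.156 and 0.789% ± 0.310. FOXO3 and FOXO4 thus carried nearly all of the FOXO RNA in these cells in both treatments, in near-equal parts. FOXO6, the fourth human FOXO gene, had 3 to 15 counts per library.

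IRS2 made up 95.8% ± 2.14 of the IRS1 and IRS2 sum in DMSO and 96.8% ± 0.927 in rapamycin with the HBG1 sgRNA (SD, n = 3), and IRS4 had 0 to 2 counts per library. The IRS RNA of these cells was therefore almost all IRS2. INSR made up 36.4% ± 4.88 of the receptor sum in DMSO and 38.9% ± 1.39 in rapamycin (SD, n = 3), with the HBG1 sgRNA, which differ by less than the spread. With the non-targeting sgRNA it made up 24.5% in DMSO and 48.4% and 35.1% in the rapamycin libraries. IGF1R was the larger part of the sum in all 9 libraries. With the HBG1 sgRNA the receptor sum was 0.695 ± 0.0788 CPM per kb in DMSO and 1.08 ± 0.133 CPM per kb in rapamycin (SD, n = 3).

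**Figure D3:**
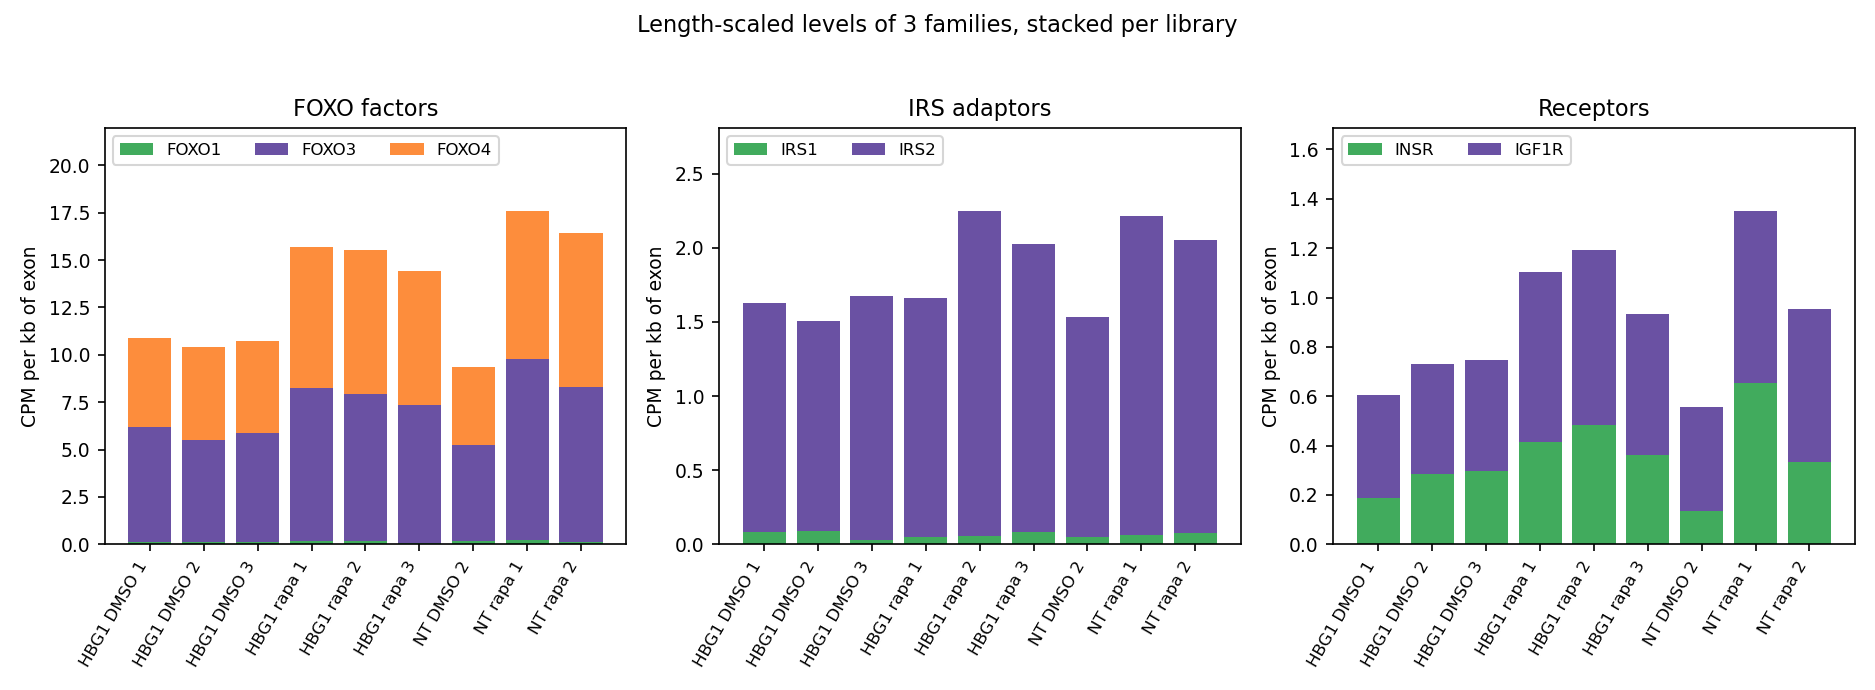
Length-scaled levels (CPM per kb of exon) of the FOXO factors, the IRS adaptors and the receptors, stacked in each of the 9 libraries, which are named by sgRNA (HBG1 or non-targeting, NT), treatment and replicate. FOXO3 and FOXO4 fill nearly all of the FOXO bars and IRS2 nearly all of the IRS bars in every library, and the FOXO bars are higher in the rapamycin libraries.

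Other genes of the pathway were read from 3 lists. Of 29 other insulin and IGF signalling genes, 24 were tested, 0 rose and 1 fell, which is 4.17% called beside 6.8% of all tested genes. The median log2 fold change was -0.04 beside 0.02 over all tested genes. The gene that fell was PTPN11, the phosphatase SHP2 (-0.30, edgeR adjusted p = 0.0422). Leaving out 1 library moved this count to between 0 and 2, and the replicate block called 4, all lower, in a fit that called 17.1% of all its genes.

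Of 33 genes of PI3K and AKT signalling, 31 were tested, 0 rose and 2 fell, with a median of -0.04. The 6.45% called is near the 6.8% of all tested genes. TRIB3, a pseudokinase that binds AKT, went from 83.2 ± 10.3 to 48.0 ± 4.33 CPM (SD, n = 3), a log2 fold change of -0.80 (edgeR adjusted p = 0.000285). GSK3A, a kinase that AKT inhibits, had a log2 fold change of -0.26 (edgeR adjusted p = 0.0417). The replicate block called 6 genes of this list, 2 higher and 4 lower, beside 17.1% of all genes in that fit (7.43% higher and 9.62% lower). Leaving out 1 library left 1 or 2.

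Of 32 genes known as activated by FOXO factors, 28 were tested, 6 rose and 0 fell. This is 21.4% of those tested, beside 6.8% of all tested genes, 2.75% higher and 4.05% lower. The median log2 fold change was 0.26, beside 0.02 over all tested genes. A positive value was found for 23 of the 28, a share that was not computed over all tested genes. This list too was chosen with earlier results of these data known, so its counts are descriptions. FBXO32, a ubiquitin ligase subunit of muscle atrophy, went from 1.52 ± 0.555 to 3.57 ± 0.462 CPM (SD, n = 3), a log2 fold change of 1.21 (edgeR adjusted p = 0.0230). PINK1, a kinase of mitochondrial quality control, rose by 0.79 (edgeR adjusted p = 0.00182), and GABARAPL1, a protein of the autophagosome membrane, rose by 0.64 (edgeR adjusted p = 0.0111). The other genes called were TXNIP (0.40), BCL2L11 (0.37) and RICTOR (0.34), named here to complete the count and after their values were seen.

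The FOXO list count depended on single libraries. It was 2 without rapamycin replicate 3 and 3 without DMSO replicate 3 of the HBG1 sgRNA, and 6 without replicate 1 of both groups. The replicate block called 10 genes, 7 higher and 3 lower, beside 17.1% of all genes in that fit, and the additive fit called 12, beside 13.8% of all genes. The 3 lower genes in the block were SOD2, a mitochondrial superoxide dismutase, BNIP3, a mitophagy receptor, and EIF4EBP1, an mTORC1 substrate, at -0.23, -0.29 and -0.31 in the unpaired fit and not called there. They are named after their values were seen.

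**Figure D4:**
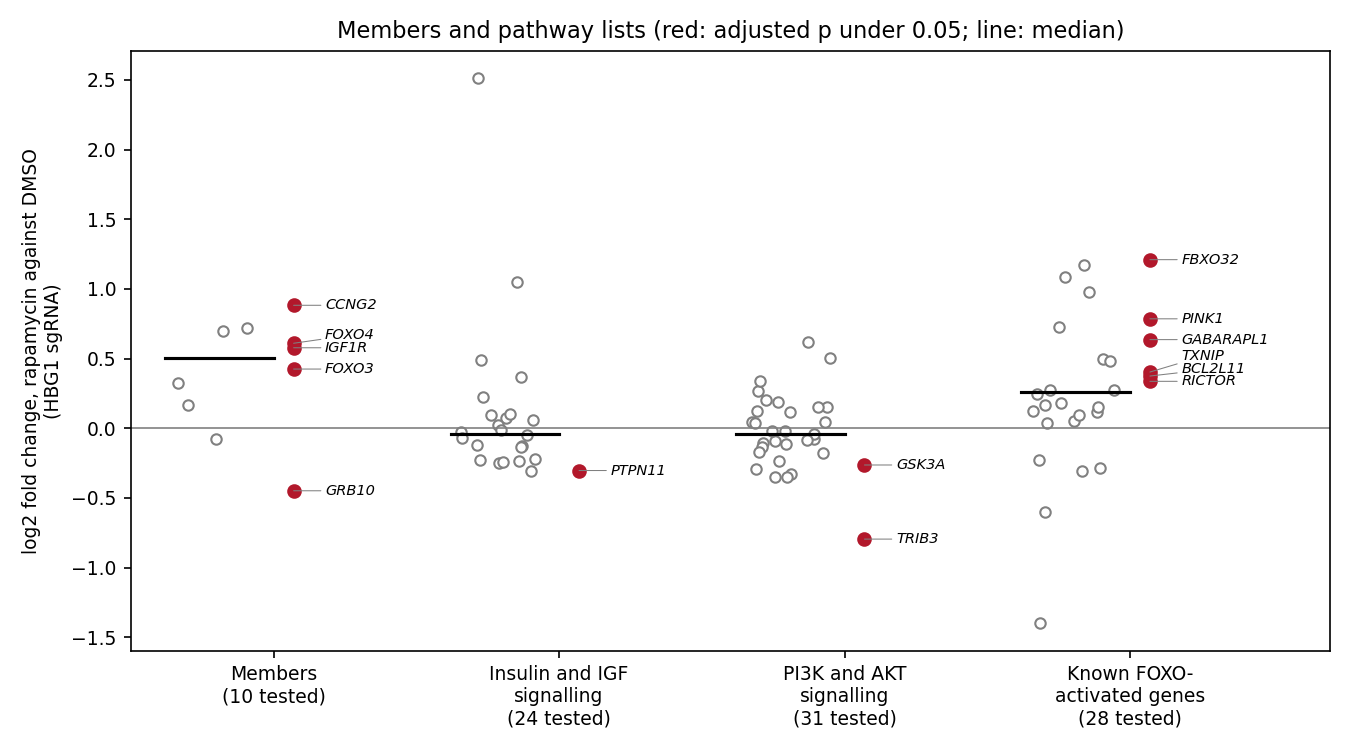
Log2 fold change between rapamycin and DMSO in HBG1 sgRNA cells, for the 10 genes and for the tested genes of the 3 pathway lists. Each circle is a gene, filled red and named where the adjusted p is under 0.05, and horizontal lines are medians; the medians are 0.50 for the 10 genes, -0.04 for both signalling lists and 0.26 for the genes known as activated by FOXO factors.

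The genes whose levels ran most alike to the called gene of highest and of lowest fold change were found by Pearson's r of log2 CPM over the 9 libraries among 15170 genes. The r values are descriptions, since all points share the same libraries and their depths. The changes and adjusted p below are no separate evidence, since these genes were picked for likeness to a called gene in the same libraries. Nearest to CCNG2 were DNM1P41 (r = 0.987), TP53INP1 (r = 0.979) and DNM1P47 (r = 0.977). TP53INP1, a stress-induced protein of the p53 and autophagy pathways, went from 7.43 to 13.8 CPM with the HBG1 sgRNA (0.91, edgeR adjusted p = 0.0139). DNM1P41 and DNM1P47 are pseudogenes of the same parent, and reads may be shared between such copies. Nearest to GRB10 were SLC7A5, a subunit of a leucine transporter, RBM14, a nuclear RNA-binding protein, and DDX51, an RNA helicase, each at r = 0.973. SLC7A5 went from 189 to 102 CPM (-0.89, edgeR adjusted p = 5.47e-05).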

How the data were processed

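RNA from K562 cells was selected on poly-T beads and sequenced in 9 NEBNext Ultra libraries, per the labels' protocols. Raw read counts per Ensembl gene were deposited by the authors as 1 table. The submitters' processing notes name STAR 2.7.3a, featureCounts, Subread 2.0.0 and GRCh38. Annotation release, strand setting and treatment of multimapping reads are not given in the sources used here. GENCODE 29 gave symbols, exon lengths and positions for 58039 of 58347 IDs.

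Groups came from the sample titles. Counts were fitted with edgeR 4.0.16 in R 4.3.3 with all 9 libraries, 1 mean per group, filterByExpr (minimum count 10, 23675 genes kept) and TMM scaling. The two-sided quasi-likelihood test was adjusted by Benjamini-Hochberg over all tested genes, and calls were made at an adjusted p under 0.05. CPM values were computed here. Standard errors are the log2 fold change over the square root of F. Alternatives were DESeq2 1.42.0, other scalings, no filter, replicate blocks, an additive fit and leaving out libraries. No 2 replicates were repeats of 1 library (chi-square per gene 4.74 to 18.6).

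Deviations of same-numbered HBG1 sgRNA libraries from their group means correlated at 0.553, 0.278 and 0.231 over 11498 genes, above the limit of 0.1. Rapamycin replicate 2 with DMSO replicate 3 also gave 0.258, and rapamycin replicate 3 with DMSO replicate 2 gave 0.194. Pairs of replicate 1 with another number were all negative. The check thus sets replicate 1 apart but does not tell how replicates 2 and 3 pair, which was taken from the titles. Between guides the same-numbered rapamycin libraries gave -0.0676 and -0.0687.

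The 10 genes and the 3 lists were chosen with earlier results of these data known. The text names all 10 genes, up to 3 called genes with the highest and 3 with the lowest fold change of each list, and the 3 genes (mean log2 CPM at least 1, none of the 10) nearest to the called gene of highest and of lowest fold change. The model was checked on simulated counts of better expressed genes, without replicate effects. The check does not cover genes at the low end of expression, changes smaller than those simulated or the shift of replicate 1. Protein sequences were not used here, and 1 gene of a pathway list and 1 marker are not reported here.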

Additional observations from a re-analysis of the deposited data

How the results depend on the processing

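Between rapamycin and DMSO in HBG1 sgRNA cells, 1609 genes were called. The replicate block on the 6 libraries, paired by the numbers in their titles, called 3441, and the additive fit called 3263. When 1 library was left out, 664 to 1731 were called (664 without DMSO replicate 2, 749 without DMSO replicate 3 and 693 without rapamycin replicate 3). Of the 10 genes, 5 were called, and 3 to 5 when 1 library was left out, with 3 without DMSO replicate 2 and 3 without rapamycin replicate 3. Besides INSR, the block changed no call among the 10 genes. For the guides under rapamycin, 7 genes were called, with 91 without the filter, 13 with DESeq2, 13 with the replicate block on the 5 rapamycin libraries, 37 without replicate 1 of both HBG1 sgRNA groups and 3 to 8 when 1 library was left out. For the interaction, 1 gene was called, with 0 without scaling, 8 without the filter, 0 with DESeq2, 5 with the replicate block within each guide, 4 without replicate 1 and 0 to 4 when 1 library was left out. The cause of these shifts was not tested. Apart from INSR between guides, the genes whose sign turned had differences near 0 or few counts. INSR differed there by -0.25, with 77 and 173 counts in the non-targeting rapamycin libraries. IRS1 under rapamycin against DMSO was 0.10 in the additive fit, 0.21 without replicate 1 and -0.40 to 0.16 when 1 library was left out, and FOXO1 was -0.12 and -0.064 to 0.51 in the last 2. Between guides, IGF1R was 0.0068 without scaling, 0.094 with the block and -0.087 to 0.090 when 1 library was left out, FOXO1 was 0.049 with the block and -0.85 to 0.33, IRS1 was 0.022 without replicate 1 and -0.39 to 0.10, and CCNG2 was 0.016 without replicate 1 and -0.11 to 0.017. IRS2 ran from -0.22 to 0.00012 and INSR from -0.64 to 0.32 when 1 library was left out. In the interaction, IGF1R was 0.013 with the block and -0.15 to 0.023 when 1 library was left out, and FOXO1 was -0.23 without replicate 1 and -0.40 to 0.78. Depth limits IRS1 and FOXO1 most.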
